A study of Homo sapiens with 8 samples.

Results

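Divergent promoter lncRNAs are long noncoding RNAs that start beside a protein-coding gene and run away from it on the opposite strand, and their gene symbols end in -DT, for divergent transcript. The tables hold 587 loci with such a name among 23161 loci, and 511 of the 15469 loci with values. Described here are the 145 of them whose mean over the 4 libraries of a cell line was at least 0.5 FPKM, a fragment count scaled by transcript length and sequencing depth, in both lines. A further 26 reached that level in HepG2 alone, 32 in LM3 alone and 308 in neither line. The mean includes the JQ1 libraries, so a locus can pass through 1 group only: 4 members had a vehicle mean under 0.5 FPKM in LM3 and 3 in HepG2, while 6 and 9 had a JQ1 mean under it. Just outside the limit stood LY6E-DT, with means of 0.498 FPKM in HepG2 and 0.578 in LM3, and CTCF-DT, with 0.493 and 0.495. Just inside it stood POU2F1-DT, with 0.625 and 0.513, and ZNF778-DT, with 0.515 and 0.583.

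RNA came from HepG2 and LM3 cells, which the labels call hepatocellular carcinoma lines (HepG2 is often classed as hepatoblastoma). Each line received JQ1 or its DMSO vehicle, 4 groups of 2 libraries each, 8 in all. The dose and the length of treatment are absent from the labels. JQ1 is a small molecule that displaces the BET proteins from acetylated chromatin. The study asked which lncRNAs depend on super-enhancers, and the comparison of JQ1 with vehicle asks here which divergent lncRNAs responded in each line. The labels do not say that replicates were separate cultures, so p-values reflect the spread between libraries alone, and that spread may be technical. In bulk RNA, fewer cells with a transcript and less of it per cell cannot be told apart.

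Most mammalian promoters of active genes lie in CpG islands and start transcription in both directions. The upstream product is usually short and soon degraded by the nuclear exosome, but where it is spliced and polyadenylated it can accumulate as a named divergent lncRNA. The lncRNA and its coding partner share a nucleosome-depleted stretch of promoter, where RNA polymerase II often pauses before it is released into elongation. The coding partners are not in these lncRNA tables and were not analysed here.

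The DNA between the 2 starts is what a divergent pair shares, and it is shown for 4 lncRNAs that were higher with JQ1 and 4 that were lower. Each run holds the bases between the RefSeq start of the partner and that of the lncRNA on GRCh38.p14, read 5′ to 3′ on the strand of the lncRNA. Capitals mark matches, on either strand, to the short motifs listed further on. The stretches were chr22:45163782-45163924 on the minus strand for NUP50-DT, chr22:42090773-42090932 on the plus strand for NDUFA6-DT, chr20:44210772-44210959 on the plus strand for OSER1-DT and chr12:47706031-47706087 on the plus strand for RPAP3-DT. For the lncRNAs that were lower they were chr2:74833988-74834126 on the minus strand for HK2-DT, chr2:3558334-3558386 on the plus strand for RNASEH1-DT, chr22:26512474-26512531 on the plus strand for TFIP11-DT and chr7:1160197-1160373 on the plus strand for ZFAND2A-DT.
NUP50-DT: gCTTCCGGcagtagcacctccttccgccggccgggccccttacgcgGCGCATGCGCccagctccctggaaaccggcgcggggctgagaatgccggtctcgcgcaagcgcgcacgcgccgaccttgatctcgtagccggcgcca
NDUFA6-DT: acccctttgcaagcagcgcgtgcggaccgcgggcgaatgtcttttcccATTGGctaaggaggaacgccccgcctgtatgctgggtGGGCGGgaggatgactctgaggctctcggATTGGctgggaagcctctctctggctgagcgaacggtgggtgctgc
OSER1-DT: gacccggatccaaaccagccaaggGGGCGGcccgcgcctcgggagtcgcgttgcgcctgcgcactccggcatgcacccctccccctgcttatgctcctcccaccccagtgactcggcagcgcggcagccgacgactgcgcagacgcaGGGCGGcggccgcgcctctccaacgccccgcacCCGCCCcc
RPAP3-DT: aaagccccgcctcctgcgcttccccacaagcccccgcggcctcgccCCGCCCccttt
HK2-DT: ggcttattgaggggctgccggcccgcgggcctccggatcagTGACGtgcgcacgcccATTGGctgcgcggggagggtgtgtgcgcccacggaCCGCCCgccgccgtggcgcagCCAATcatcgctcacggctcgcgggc
RNASEH1-DT: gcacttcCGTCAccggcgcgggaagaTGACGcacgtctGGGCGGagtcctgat
TFIP11-DT: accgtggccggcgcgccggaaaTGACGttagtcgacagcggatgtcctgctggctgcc
ZFAND2A-DT: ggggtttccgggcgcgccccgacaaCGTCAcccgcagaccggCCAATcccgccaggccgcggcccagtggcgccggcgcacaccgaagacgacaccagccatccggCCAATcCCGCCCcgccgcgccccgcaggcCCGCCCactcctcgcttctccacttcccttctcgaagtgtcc
The pairs stood 53 to 188 bp apart and the stretches held 63.8% to 75.5% G and C. The ETS motif CCGGAAG and the NRF1 motif are the marked runs of NUP50-DT. NDUFA6-DT holds the CCAAT box CCAAT 2 times and the SP/KLF motif GGGCGG 1 time. TGACG, the core of the cAMP response element, is marked in all 4 stretches of lncRNAs that were lower, and in none of the 4 of those that were higher. These 8 pairs were chosen with their responses known, so that difference is no evidence by itself; the count over all windows is given below.

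Total FPKM over all loci were between 29369 and 32765 in the HepG2 libraries and between 34066 and 35742 in those of LM3, and the members took 1.02% to 1.21% of it. The number of fragments per library is not given in the sources used here, so counting error cannot be set beside a value. Replicates correlated at 0.961 to 0.979 (Pearson's r on log2(FPKM + 0.5), across loci, which are not independent), and libraries of different treatment within a line at 0.896 to 0.915. Of 14 hepatocyte-lineage lncRNAs listed as markers 9 had values, and 4 reached 0.5 FPKM in HepG2 and 3 in LM3. Their summed level without H19 was 9.43 to 9.61 FPKM in HepG2 vehicle libraries and 2.70 to 2.82 with JQ1, and 2.18 to 2.48 against 1.15 to 1.29 in LM3. The summed level of lncRNAs of other cell types, 10 of 13 with values, was 9.85 to 10.7 FPKM against 4.14 to 4.26 in HepG2 and 5.18 to 6.07 against 3.06 to 3.17 in LM3. Most of the second sum was FENDRR and of the first CPS1-IT1, while HNF4A-AS1, MIR124-1HG and MIR142HG were listed at 0 in all LM3 libraries. Both sums thus moved with JQ1, and their part in the results below was not tested.

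Most members were scarce transcripts. Vehicle means had a median of 1.29 FPKM in HepG2 (0.36 to 17.1) and 1.61 FPKM in LM3 (0.375 to 28.3). A mean of 5 FPKM or more in both lines was reached by 11 members, and 36 were under 1 FPKM in both. By the mean over all 4 libraries, STX17-DT, FBXO38-DT, RAB30-DT and EPM2A-DT were the highest 4 in both lines. The levels of STX17-DT, whose partner encodes a SNARE protein of autophagosomes, were 17.5 and 16.7 FPKM in HepG2 vehicle libraries and 16.3 and 16.3 with JQ1, and 29.1 and 27.6 against 24.1 and 25.4 in LM3. FBXO38-DT, beside a gene for an F-box protein, stood at 17.6 and 15.8 FPKM in HepG2 vehicle and 15.6 and 17.8 with JQ1, and at 22.3 and 20.96 against 20.3 and 18.3 in LM3. The means of these neighbours in rank lie within their spread in HepG2, while in LM3 all 4 libraries of STX17-DT were above all 4 of FBXO38-DT. None of these 4, nor RIPK2-DT, passed the test for JQ1 in either line, with log2 fold changes of -0.28 to 0.10 in HepG2 and -0.36 to -0.04 in LM3.

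Of 145 members, 128 lay within 2-fold between the vehicle means of the lines, and Pearson's r of the log2 means was 0.861 across the members. Members had to reach 0.5 FPKM in both lines, which left out 26 -DT loci that passed in HepG2 alone and 32 in LM3 alone. The closeness of the levels is thus in part set by the rule, and no value over all loci stands beside it. The tables may have been normalized separately, so levels were set side by side without a test. A ratio above 2 in favour of LM3 was found for 13 members and in favour of HepG2 for 4. RNF32-DT, named after its values were seen, had the highest ratio, 8.94, with 0.32 and 0.40 FPKM in HepG2 vehicle libraries and 3.33 and 3.11 in LM3. MAP3K2-DT, beside a gene for a MAP kinase kinase kinase, was at 3.10 FPKM in HepG2 and 10.3 in LM3, and GARS1-DT at 9.05 and 19.2. On the HepG2 side, HNRNPD-DT and NUP50-DT had ratios of 0.376 and 0.379.

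**Figure D1:**
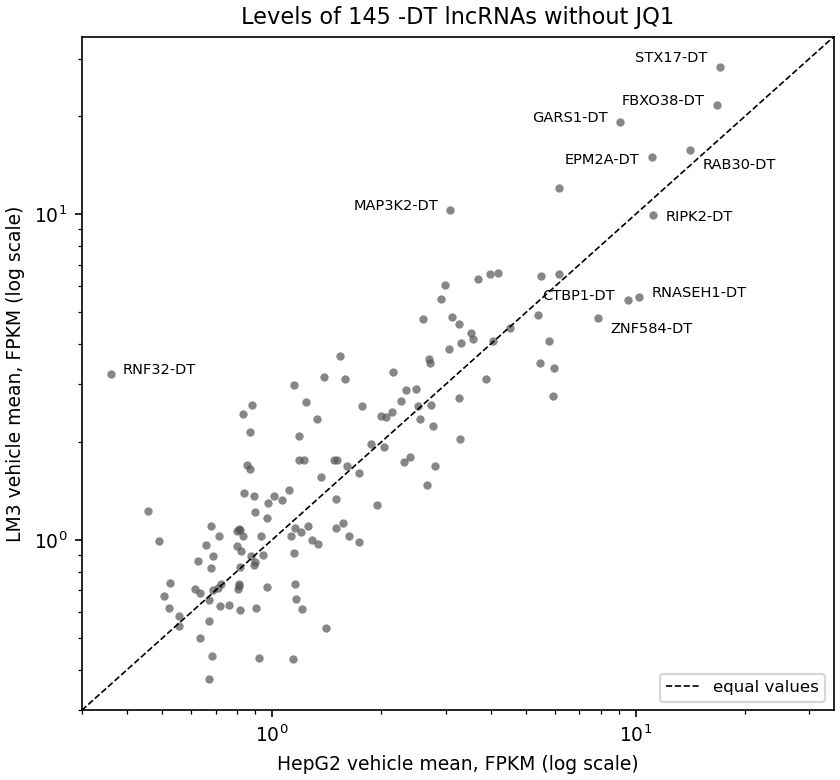
Mean FPKM of each of the 145 -DT lncRNAs in the 2 vehicle libraries of HepG2 (horizontal) and of LM3 (vertical), both on log scales, with a dashed line at equal values. Points follow the line, STX17-DT and FBXO38-DT are highest, and RNF32-DT lies farthest above it.

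After JQ1, some divergent lncRNAs rose and more fell, while most did not pass the test. In HepG2, 6 members were higher and 22 lower at an adjusted p under 0.05 (limma on log2(FPKM + 0.5), adjusted over all 5906 loci tested), and 117 were not called. Over all loci 25.1% were called, 10.8% higher and 14.2% lower, against 19.3% of the members, 4.14% higher and 15.2% lower. In LM3, 9 members were higher, 24 lower and 112 not called, which is 22.8% of them, where 23.3% of the 6474 loci tested were called, 7.92% higher and 15.4% lower. In LM3 and among the falls of HepG2 the members' shares are near those of all loci, and among the rises of HepG2 the members' share is the lower one; no test was made of that. Of the 22 lower calls in HepG2, 5 are of members with a JQ1 mean under 0.5 FPKM that reached the limit through their vehicle libraries (BAIAP2-DT, ARHGAP11B-DT, ADM-DT, CRIM1-DT and TFIP11-DT), and so is 1 of the 24 in LM3 (BAIAP2-DT), so these counts support nothing by themselves. The median log2 fold change of the members was -0.02 in HepG2 and -0.09 in LM3, beside -0.01 and -0.08 over all loci. A call with a change of 2-fold or more on that scale was seen for 3 members in HepG2, 2.07% beside 4.22% over all loci, and for 8 in LM3, 5.52% beside 5.48%.

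These counts rest on having both replicates of each group. Without either JQ1 library of HepG2, and without any 1 library of LM3, limma called no member and no locus at all, although in HepG2 11 and 11 members were still higher and 26 and 29 lower at an unadjusted p under 0.05, and in LM3 11 to 18 higher and 24 to 37 lower. With all libraries, an unadjusted p under 0.05 was reached by 53 members in HepG2, where the share over all loci was 40.2%, and by 56 in LM3, where it was 40.3%. Without vehicle replicate 1 of HepG2 1 member was called higher and 4 lower, and without replicate 2 3 and 6. All 28 called members of HepG2 and all 33 of LM3 kept their sign in every alternative fit. Without the filter on low values, 19 of these calls were lost in HepG2 and 29 in LM3. Centring each library on its median changed the split to 10 higher and 20 lower in HepG2 and to 13 and 17 in LM3, and quantile normalization to 10 and 21 and to 14 and 17. Over all loci the split moved too, from 640 higher and 840 lower to 809 and 786 by centring and 758 and 818 by quantile normalization in HepG2, and from 513 and 998 to 700 and 770 and to 715 and 732 in LM3. Groups did not overlap for 37 members that were higher and 51 that were lower in HepG2, 60.7% of members where the background is 66.4% (32.4% higher and 33.9% lower). In LM3 they did not overlap for 33 and 55, 60.7% beside 66.7% (27% higher and 39.7% lower).

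Higher in both lines were 3 members, 2.07% of them, beside 272 of the 5035 loci tested in both, 5.40%. They make up 50% of the 6 rises in HepG2 and 33.3% of the 9 in LM3, where the shares over all loci were 49.8% and 64.8%. NDUFA6-DT lies on chromosome 22 (42090931 to 42137742, plus strand, up to 8 exons in GENCODE 29) beside the gene of a subunit of mitochondrial complex I. It had 1.46 and 1.68 FPKM in HepG2 vehicle libraries and 4.57 and 4.71 with JQ1, and 1.14 and 1.11 against 2.30 and 2.44 in LM3. Both JQ1 libraries were well above both vehicle libraries in each line, with log2 fold changes of 1.31 (SE 0.093, adjusted p 0.00615) and 0.82 (SE 0.088, adjusted p 0.0108).

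NUP50-DT is on the same chromosome (45133020 to 45163781, minus strand, up to 3 exons), head to head with the gene of a nucleoporin. Its FPKM were 1.04 and 1.78 in HepG2 vehicle libraries and 3.09 and 3.11 with JQ1, and in LM3 0.37 and 0.70 against 2.33 and 2.58. The vehicle replicates differed from each other, yet stayed below both JQ1 libraries. The log2 fold changes were 0.94 (SE 0.20, adjusted p 0.0369) in HepG2 and 1.53 (SE 0.18, adjusted p 0.0126) in LM3. In HepG2 the call was lost after rescaling without ribosomal and mitochondrial loci (adjusted p 0.0566). Without the filter on low values it was lost in both lines. A locus of the authors' own naming that overlaps it on the same strand had smaller changes, 0.37 and 0.39, so reads may have been shared between them.

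OSER1-DT, on chromosome 20 (44210907 to 44226027, plus strand), is paired with a gene named for its response to oxidative stress. It stood at 1.34 and 1.06 FPKM against 2.18 and 2.01 in HepG2 and at 1.12 and 0.99 against 2.36 and 2.05 in LM3, so its groups did not overlap. The log2 fold changes were 0.61 (SE 0.12, adjusted p 0.0277) and 0.80 (SE 0.11, adjusted p 0.0155).

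Several of the remaining rises passed in LM3 alone. HNRNPD-DT, beside the gene of an AU-rich element binding protein, had 0.41 and 0.45 FPKM in LM3 vehicle libraries and 1.95 and 1.54 with JQ1, a log2 fold change of 1.27 (SE 0.13, adjusted p 0.0104). Its vehicle level in LM3 is under the 0.5 FPKM limit, so it became a member there through its JQ1 libraries. In HepG2 it had 0.91 and 1.38 against 1.64 and 1.52, which did not overlap and did not pass (0.35, adjusted p 0.190). RPAP3-DT, whose partner is a cochaperone in the assembly of RNA polymerases, went from 1.80 and 2.14 to 4.67 and 4.39 FPKM in LM3 (log2 fold change 1.03, SE 0.11, adjusted p 0.0105). In HepG2 its 1.55 and 2.19 FPKM became 3.0 and 2.90 (0.55, adjusted p 0.0634). NUDT19-DT, beside a gene of a peroxisomal hydrolase of coenzyme A, had 0.50 and 0.74 FPKM against 1.55 and 1.95 in LM3 (1.01, SE 0.16, adjusted p 0.0229), while its HepG2 groups overlapped at 0.82 and 0.99 against 0.65 and 0.93. PCMTD1-DT (0.64), SP2-DT (0.60) and RNF139-DT (0.41) were also called higher in LM3. A locus of the authors' naming that overlaps PCMTD1-DT on the same strand changed the other way, by -0.16 in LM3 and -0.33 in HepG2. It passed in neither line, and reads may have been shared. The calls of SP2-DT and RNF139-DT were lost in a fit with the replicate number as a block. In HepG2, the other 3 rises were USP34-DT (0.51), ZNF8-DT (0.44) and ZDHHC12-DT (0.37, adjusted p 0.0493), the last a call lost under 6 of 10 alternatives that kept all libraries.

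**Figure D2:**
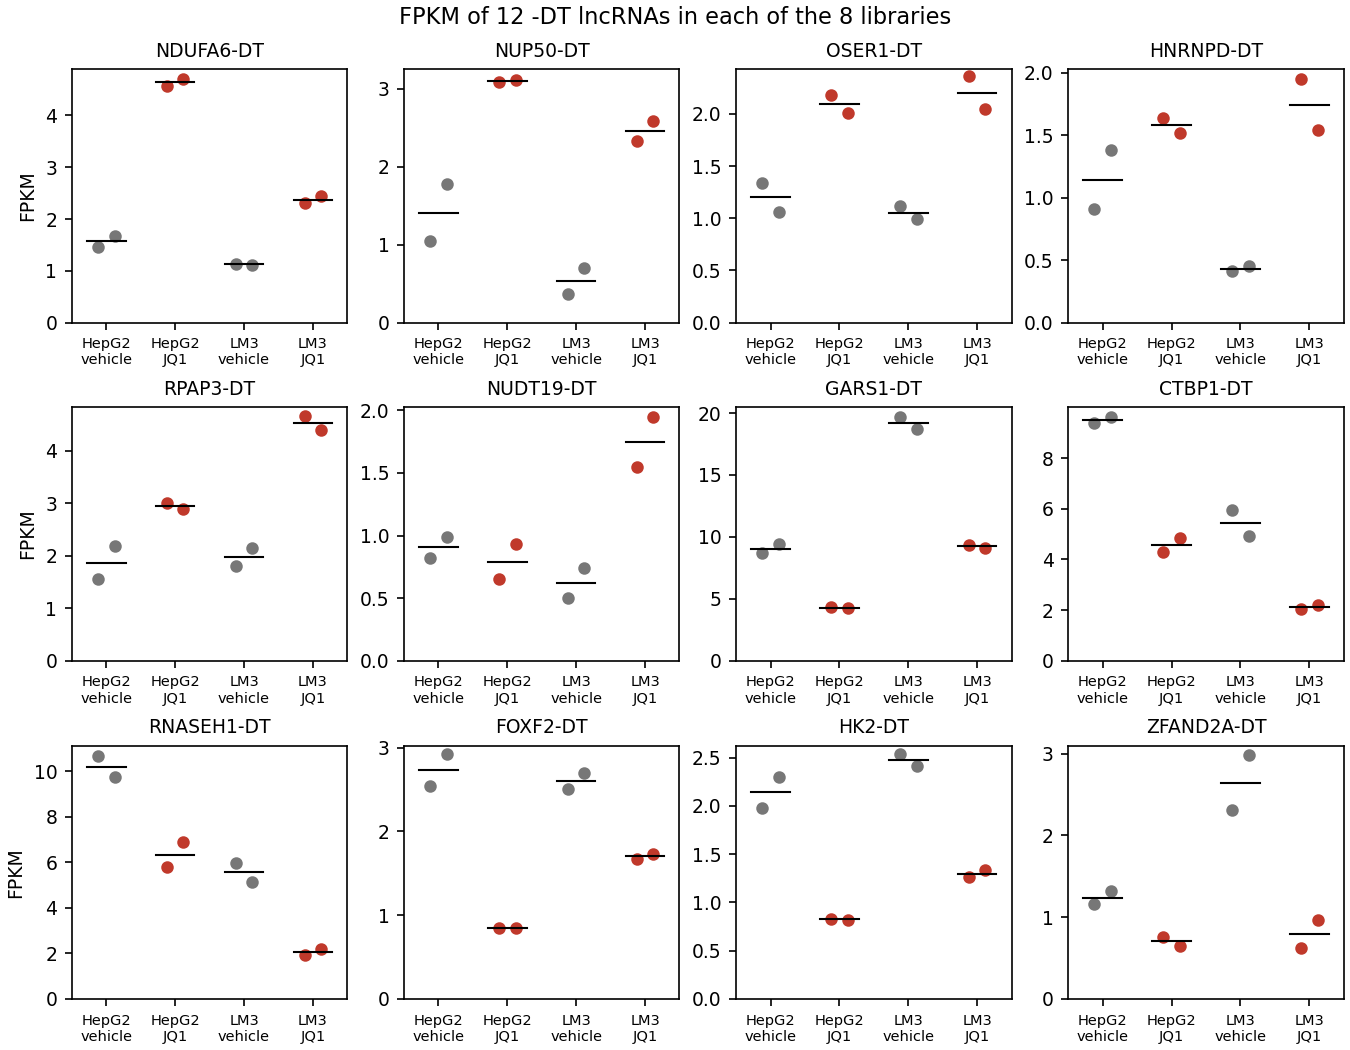
FPKM of 12 -DT lncRNAs in each of the 8 libraries, with 1 point per library (grey vehicle, red JQ1), a line at the mean of each group and an axis from 0 in every panel. NDUFA6-DT and NUP50-DT show JQ1 libraries above vehicle in both lines, GARS1-DT and CTBP1-DT show them below, and NUDT19-DT shows overlapping groups in HepG2 alone.

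Of the 31 members lower in a line, 15 were lower in both, which is 68.2% of the 22 lower in HepG2 and 62.5% of the 24 lower in LM3. Over all loci tested in both lines the same shares were 68.0% and 64.8%. GARS1-DT had the highest vehicle mean among them in LM3, and RNASEH1-DT and CTBP1-DT were above it in HepG2. GARS1-DT spans chromosome 7 from 30516309 to 30595286 on the minus strand with up to 9 exons, and its 5′ end overlaps that of the glycyl-tRNA synthetase gene. Its 8.67 and 9.43 FPKM became 4.36 and 4.23 in HepG2, and its 19.7 and 18.7 became 9.36 and 9.11 in LM3. The log2 fold changes were nearly equal, -0.99 (SE 0.082, adjusted p 0.00705) and -1.02 (SE 0.081, adjusted p 0.00769). An overlapping locus of the authors' naming fell with it, by 0.61 and 0.70.

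CTBP1-DT, on chromosome 4 (1249300 to 1288291, plus strand), is the divergent partner of a transcriptional corepressor gene. Its FPKM were 9.37 and 9.62 against 4.30 and 4.84 in HepG2, and 5.95 and 4.94 against 2.04 and 2.20 in LM3. Vehicle and JQ1 libraries were far apart in both, with log2 fold changes of -0.98 (SE 0.089, adjusted p 0.00797) and -1.18 (SE 0.12, adjusted p 0.0101). RNASEH1-DT, on chromosome 2 (3558474 to 3564842, plus strand), adjoins the gene of the ribonuclease that degrades RNA in RNA-DNA hybrids. It had 10.7 and 9.73 FPKM against 5.79 and 6.89 in HepG2, and 5.99 and 5.13 against 1.91 and 2.19 in LM3. Both falls passed, at -0.65 (SE 0.11, adjusted p 0.0219) and -1.25 (SE 0.12, adjusted p 0.00913).

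FOXF2-DT is a single-exon locus on chromosome 6 (1383790 to 1385066, minus strand). Its deposited start lies 4510 bp from the start of a forkhead transcription factor gene and thus farther than most. RefSeq gives 3 windows for FOXF2-DT, and the start nearest the deposited one is still 4395 bp from it. By that RefSeq start FOXF2-DT is 114 bp from the gene. It had 2.54 and 2.92 FPKM in HepG2 vehicle libraries and 0.85 in both with JQ1, and 2.50 and 2.70 against 1.67 and 1.73 in LM3. The log2 fold change was -1.26 (SE 0.10, adjusted p 0.00697) in HepG2 and -0.49 (SE 0.090, adjusted p 0.0273) in LM3.

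HK2-DT, on chromosome 2 (74832655 to 74833987, minus strand, 1 exon), starts at the promoter of hexokinase 2, the enzyme of the first step of glycolysis. Its 1.98 and 2.30 FPKM became 0.83 and 0.82 in HepG2, and its 2.54 and 2.41 became 1.26 and 1.34 in LM3. No JQ1 library reached a vehicle library, and the log2 fold changes were -0.99 (SE 0.10, adjusted p 0.00880) and -0.72 (SE 0.089, adjusted p 0.0125). FMNL1-DT, beside a formin gene of the actin cytoskeleton, fell by 1.09 and 0.86, with 2.40 and 2.26 against 0.71 and 0.95 FPKM in HepG2, and 2.57 and 3.18 against 1.41 and 1.30 in LM3. ZFAND2A-DT, whose partner is a stress-induced proteasome-associated gene, had 1.16 and 1.32 FPKM against 0.76 and 0.65 in HepG2 (-0.53, adjusted p 0.0303) and 2.31 and 2.98 against 0.62 and 0.96 in LM3 (-1.29, SE 0.19, adjusted p 0.0182). A locus of the authors' naming overlaps it on the same strand, with a mean of 1.79 FPKM in LM3. That locus passed in limma in HepG2 (-0.63, adjusted p 0.0181) and did not in LM3 (-0.23, adjusted p 0.346). Reads may have been shared between them.

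Further members fell in both lines with log2 fold changes between -0.44 and -0.98. Among them were TFIP11-DT (-0.71 in HepG2 and -0.82 in LM3), C2orf49-DT (-0.67 and -0.70), C2orf74-DT (-0.65 and -0.63), ZNF747-DT (-0.60 and -0.80), ADM-DT (-0.58 and -0.98), BAIAP2-DT (-0.58 and -0.74) and ACAD9-DT (-0.49 and -0.44). ADM encodes the vasodilator peptide adrenomedullin and BAIAP2 a scaffold between membrane and actin. ADM-DT had 0.76 and 0.91 FPKM against 0.32 and 0.47 in HepG2, and 2.35 and 2.53 against 0.82 and 1.17 in LM3. The LM3 calls of C2orf74-DT (adjusted p 0.0475) and ACAD9-DT (adjusted p 0.0428) were near the threshold and were lost under 6 of 10 alternatives that kept all libraries. In HepG2 the call of ADM-DT was lost by centring and by quantile normalization, and that of ACAD9-DT by quantile normalization. Both were also lost without the filter on low values, as most calls were.

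Falls that passed in HepG2 alone included CRIM1-DT (-0.69), MRPS30-DT (-0.61) and FAM151B-DT (-0.57). In LM3 alone they included MOCS2-DT (-0.86), UBA6-DT (-0.73) and EIF3J-DT (-0.56), next to genes for molybdenum cofactor synthesis, a ubiquitin-activating enzyme and a subunit of translation initiation factor 3. CRIM1-DT, with a mean of 0.613 FPKM in HepG2, overlaps a locus of the authors' naming with 4.2 FPKM there. That locus did not pass in limma (-0.36, adjusted p 0.0674), and reads may have been shared. UBA6-DT had nearly the same change in HepG2, -0.70, with 3.90 and 3.24 FPKM against 1.62 and 2.44 and an adjusted p of 0.0624. FAM151B-DT likewise had -0.66 in LM3 with an adjusted p of 0.0509. A pass in 1 line and a miss in the other is thus no difference between the lines. C16orf95-DT was the 1 member listed at 0 in a library, with 1.15 and 1.06 FPKM in LM3 vehicle libraries and 0 and 0.87 with JQ1, and it was not called.

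Across the 145 members the log2 fold changes in HepG2 and LM3 had a Pearson's r of 0.755 and a Spearman's rho of 0.737 (across loci, which are not independent), and over all 5035 loci tested in both lines the values were 0.770 and 0.733. Both changes were negative for 66 members, both positive for 41 and opposite for 38, which is 45.5%, 28.3% and 26.2% beside 41.0%, 35.6% and 23.4% over all loci. No member was called in opposite directions, 10 were called in HepG2 alone and 15 in LM3 alone, and 102 in neither. Over the 5035 loci these counts were 2, 478, 384 and 3461.

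**Figure D3:**
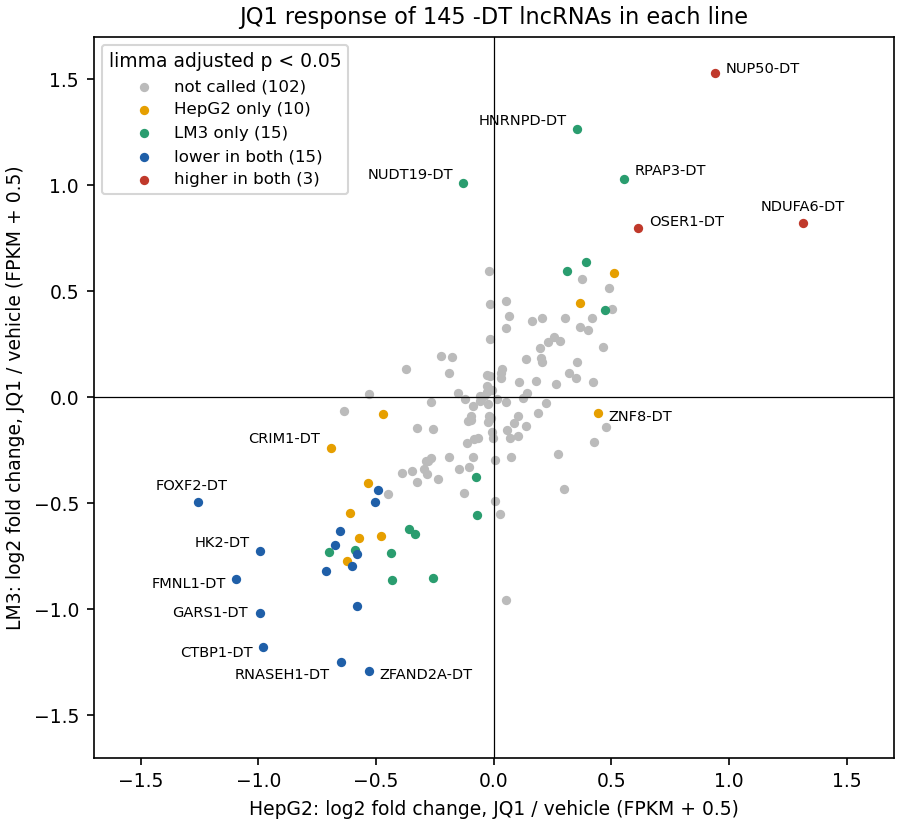
Log2 fold change of JQ1 over vehicle on the log2(FPKM + 0.5) scale for each of the 145 -DT lncRNAs in HepG2 (horizontal) and LM3 (vertical), coloured by the limma calls in the lines. The 15 members lower in both lie at the lower left, the 3 higher in both at the upper right, and no member was called in both lines in opposite directions.

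When the responses of the lines were compared directly in 1 limma fit over the 8 libraries, no member passed (0 of 145), where 0.218% of the 5035 loci did, 0.0199% with the higher response in LM3 and 0.199% with the lower. At an unadjusted p under 0.05 there were 12 members, 3 with the higher response in LM3 and 9 with the lower, 12% being the share over all loci. The smallest adjusted p was that of FOXF2-DT, 0.108, with a response 0.76 (SE 0.12) less negative in LM3. NUDT19-DT followed, with a response 1.14 (SE 0.24) higher in LM3 and an adjusted p of 0.192. For HNRNPD-DT the difference was 0.91 (SE 0.22, adjusted p 0.224), for NDUFA6-DT -0.49 (SE 0.12, adjusted p 0.220) and for RNASEH1-DT -0.60 (SE 0.17, adjusted p 0.275). A miss at this threshold with 2 libraries a group does not show that the lines respond alike.

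Calls were also counted by what the partner genes do. Over all loci 25.1% were called in HepG2 and 23.3% in LM3, and the classes are small. Partners were sorted by the starts of their symbols, which left 79 of 145 in no class and put PAXIP1 among transcription factors, CAPN10 with membrane traffic and TNKS2 with signalling, where each fits loosely. Next to genes of RNA synthesis, processing and nuclear transport, NUP50-DT, RPAP3-DT and HNRNPD-DT were higher in LM3, DDX19A-DT (-0.65) was lower, and RBM33-DT (-0.55) did not pass. Of these 5, NUP50-DT alone was called in HepG2. Among 4 partners of translation, GARS1-DT fell in both lines, MRPS30-DT in HepG2, EIF3J-DT in LM3, and MRPL20-DT in neither. Of 13 transcription factor partners 1 was higher and 3 lower in HepG2, and 1 higher and 2 lower in LM3. FOXF2-DT and ZNF747-DT fell in both, ZNF691-DT (-0.47) fell in HepG2, and ZNF584-DT, ZNF778-DT and ZNF594-DT were not called in either line. The 12 signalling partners held 1 call in HepG2, ARHGAP11B-DT (-0.48), and none in LM3 where 3 had an unadjusted p under 0.05. ARHGAP11B is a near copy of another gene, so its reads may be split. The 10 partners of membrane traffic and the cytoskeleton gave FMNL1-DT in both lines and TMED2-DT (-0.38) in LM3 alone, a call lost under 6 of 10 alternatives that kept all libraries. Among 9 carriers and metabolic enzymes HK2-DT and ACAD9-DT fell in both lines, SLC30A6-DT (-0.62) fell in LM3 (a call lost under 5 of 9 such alternatives), NUDT19-DT rose there, and the other 5 were not called.

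Calls were next counted by the structure and level of the locus. Over all loci 25.1% were called in HepG2 (10.8% higher, 14.2% lower) and 23.3% in LM3 (7.92% and 15.4%). An unadjusted p under 0.05 was reached by 40.2% and 40.3% of them. Exon counts are from GENCODE 29, on whose coordinates 82 of the 145 members lie. With at most 1 annotated exon there were 32 members, of which 5 were lower in HepG2 and 6 in LM3 and none higher (11 and 12 had an unadjusted p under 0.05). In that class 15.6% and 18.8% were called. Rises were few among all 145 members, 6 in HepG2 and 9 in LM3, so their absence from 32 says little. With 2 exons or more there were 111, with 6 higher and 16 lower in HepG2 and 9 and 17 in LM3. That is 19.8% and 23.4% called. Among 34 members that span 50 kb or more, 5 were lower in HepG2 (14.7% called), and in LM3 1 was higher and 2 lower (8.82%). The 38 members with means under 1 FPKM in both lines gave 1 higher and 5 lower in HepG2 and 0 and 3 in LM3 (limma; 7 had an unadjusted p under 0.05 there). Overlap with another locus on the same strand, over at least 0.5 of the shorter, was found for 51 members and 12 of the 43 called in any line. The 94 without such overlap gave 3 higher and 16 lower in HepG2 (20.2% called), and 6 and 21 in LM3 (28.7%). ZNF8-DT overlaps 3 loci of the authors' naming that changed by 0.49 to 0.74 in HepG2, so its value is uncertain, and EOLA1-DT and EOLA2-DT lie beside near-identical genes.

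All 145 partners are protein coding and on the opposite strand in GENCODE 29. The median distance from the start of the lncRNA, as the tables give it, to the nearest start of a partner transcript was 96 bp. It was within 500 bp for 132 members and within 1000 bp for 140, and in 20 the 5′ ends overlapped. The strand setting of the counting is not given in the sources used here. Where 5′ ends overlap, it is thus not known whether reads of the lncRNA and of its partner were told apart over the shared bases. By the deposited starts and GENCODE 29 partner starts that holds for GARS1-DT (-402 bp), RNASEH1-DT (-142 bp) and FMNL1-DT (-145 bp). It also holds for ZNF747-DT (-166 bp), NDUFA6-DT (-24 bp) and HK2-DT (-6 bp), among others. Between the RefSeq starts used for the printed stretches there are gaps, 53 bp for RNASEH1-DT, 160 bp for NDUFA6-DT and 139 bp for HK2-DT. The deposited and RefSeq starts of the lncRNA are the same for HK2-DT and 2 bp apart for NDUFA6-DT. There it is mainly the start of the partner that differs between GENCODE 29 and RefSeq. Measured to the outermost start of the partner gene, more members overlap, such as CTBP1-DT (-653 bp) and ZFAND2A-DT (-385 bp). The 5 members farther than 1000 bp were EPM2A-DT (63386 bp), FOXF2-DT (4510 bp), ACAD9-DT (3378 bp), MRPL20-DT (1783 bp) and ST3GAL1-DT (1243 bp). A shared promoter is not shown for them by the deposited starts. For FOXF2-DT the RefSeq starts leave a gap of 114 bp. FOXF2-DT and ACAD9-DT are among the 31 members lower in a line. By the deposited starts none of the 12 higher in a line is that far.

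**Figure D4:**
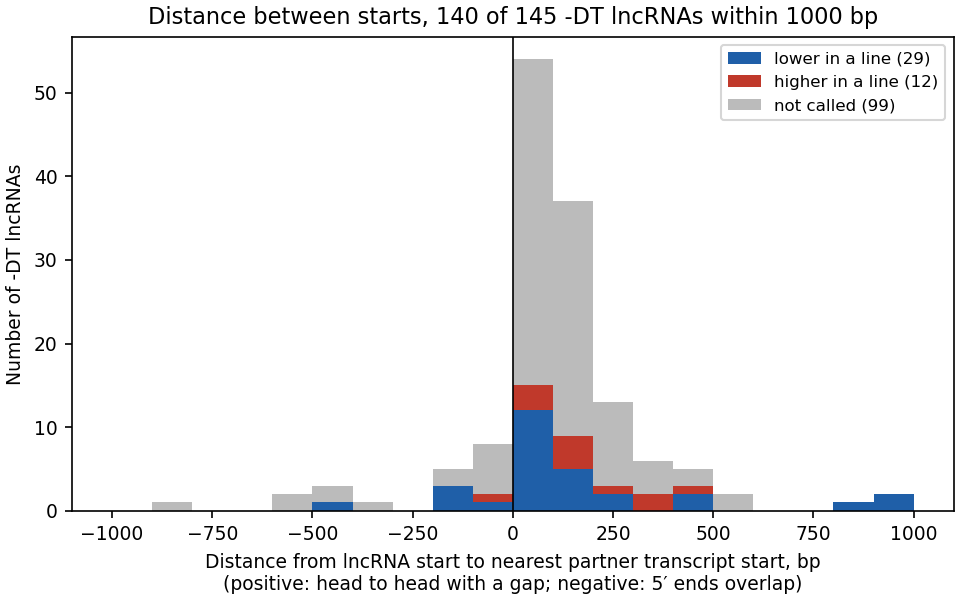
Number of -DT lncRNAs by distance in bp from their start to the nearest partner transcript start, in bins of 100 bp, for the 140 within 1000 bp, coloured by call in either line. Most lie in the first bins above 0 whether called lower (29), higher (12) or not (99).

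RefSeq promoter windows of 300 bases, 250 before to 50 after a start, were found for 112 members on GRCh38.p14. Their median G and C content was 69.7%, beside 58.7% in all 35116 windows of the reference, and the median ratio of observed to expected CpG was 0.908 beside 0.579. With a ratio of at least 0.6 and at least 50% G and C, 96.4% of the members' windows were like CpG islands, against 46.9% of all. Members lower in a line (26 windows), higher (9) and not called (77) had medians of 70.5%, 67.7% and 69.7% G and C and these lie close together.

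Motifs were chosen after the responses were known, and a match on either strand describes the letters only. GGGCGG, bound by SP and KLF factors, was in 77.7% of the members' windows and 45.0% of all. The ETS motif CCGGAAG was in 25.9% and 10.3%, the NRF1 motif in 4.46% and 1.24%, and the YY1 motif AAGATGGCG in 5.36% and 1.75%. CCAAT was about as common in both, 34.8% and 34.6%, and TATAAA was rarer in the members, 3.57% beside 11.5%. TGACG was in 40.2% and 24.6%. It was in 14 of 26 windows of members that were lower, 1 of 9 of those higher and 30 of 77 of those not called. The full TGACGTCA, which contains TGACG, was in 3 windows. The E-box CACGTG was in 9.82% and 7.26%, with 0 of 26 lower members, 2 of 9 higher and 9 of 77 not called. With 9 windows of higher members, 1 window more or less moves such a share widely. The windows of the reference were not selected for expression or matched for G and C content. Neither the motif shares nor the CpG shares above are thus shown to be particular to -DT lncRNAs. The match of RPAP3-DT, the 1 higher member with TGACG, lies outside the stretch between its starts printed above. All windows describe the RefSeq start, which for most members is not the deposited start. Among members with a window, the deposited start equalled the RefSeq start for 23 and lay within 100 bp of it for 88. The starts lay farthest apart for GARS1-DT, EPM2A-DT and FOXF2-DT.

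**Figure D5:**
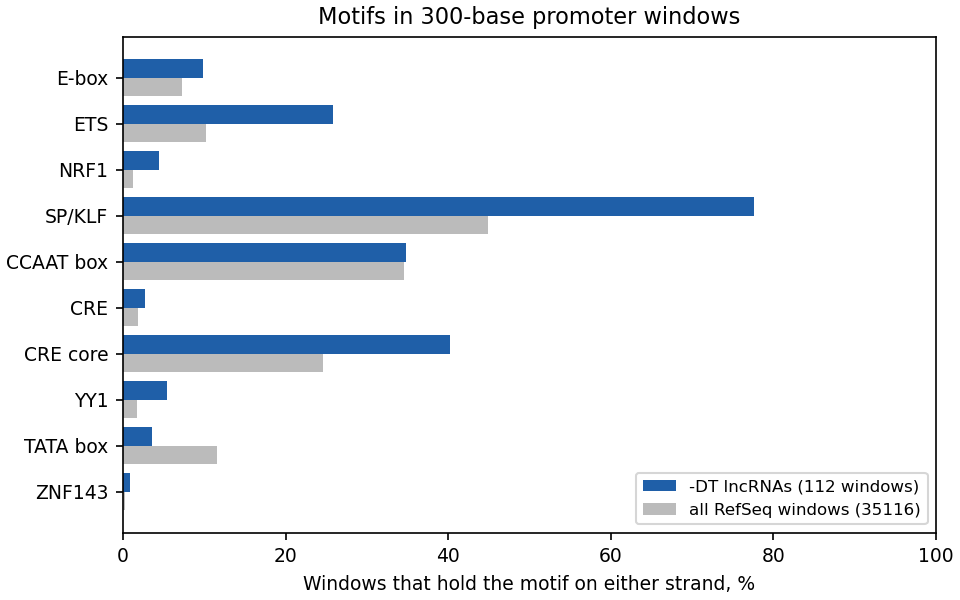
Percent of 300-base promoter windows that hold each motif on either strand, for 112 -DT lncRNAs (blue) and all 35116 RefSeq windows (grey), with an axis from 0 to 100%. SP/KLF and ETS motifs are more frequent in the -DT windows, CCAAT boxes equally so, and TATA boxes less. The grey windows are not matched for expression or for G and C content.

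A hand-made list of lncRNAs with another kind of name, taken to lie at divergent or shared promoters, served as a comparison. The responses of some of them were known beforehand. Their distance from a coding gene start was not measured here, so some may not be divergent. Of 48 with values, 31 were tested in HepG2, where 2 were higher and 10 lower, and 30 in LM3, where 3 were higher and 8 lower. That is 38.7% and 36.7% called, beside 25.1% and 23.3% over all loci. As some responses were known when the list was made, these shares support nothing by themselves. FENDRR, the divergent lncRNA of FOXF1, which is also among the markers of other cell types above, fell in both lines by 1.48 and 1.34 on the log2 scale (adjusted p 0.00513 and 0.00565), as FOXF2-DT did beside the related gene. NR2F1-AS1 fell by 0.75 and 0.88, SBF2-AS1 by 1.17 and 1.63, and SNHG17, a host of small nucleolar RNAs, by 0.57 and 0.38. THUMPD3-AS1 rose in both, by 0.66 and 0.52, and MIR22HG in HepG2 by 0.59. The median log2 fold changes of the list were -0.16 in HepG2 and -0.23 in LM3, beside -0.01 and -0.08 over all loci. No test of these against the -DT loci was made. None of the 29 tested in both lines differed between them in the limma fit, where 0.218% of all loci did. An unadjusted p under 0.05 was reached by 6 of them, where the share over all loci was 12%.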

How the data were processed

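FPKM values of lncRNA loci, rounded to 2 decimals, were deposited by the authors in 1 table for each cell line, per the file headers, and were used as deposited. The submitters' processing notes list Bowtie 0.12.2, mm8 and hg19 and assign them no step, but the coordinates match GRCh38: of 14860 Ensembl IDs in GENCODE 29, 100% had the same chromosome and 85.7% the same start. The way fragments were counted, strand setting included, is not given in the sources used here. Loci without values (7692) were left out.

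JQ1 was compared with vehicle within each table by limma 3.58.1 (R 4.3.3, trend and robust fitting, two-sided) on log2(FPKM + 0.5). Loci under a mean of 0.5 FPKM over the line's libraries were left out. Benjamini-Hochberg adjustment ran over all loci tested, with a threshold of 0.05. Fold changes are on that scale, which understates those of low loci. The difference between lines came from 1 fit over 8 libraries and 5035 loci. The fits were first tested on simulated data. Tables were handled with Python 3.11.15, pandas 2.3.3 and NumPy 2.4.6 and drawn with matplotlib 3.10.9. Promoter windows and starts are from RefSeq, GRCh38.p14. Where RefSeq gives several starts for a lncRNA, the one nearest its deposited start was used. For the partner, the start nearest to that of the lncRNA was used.

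The members, lists, naming rule and motifs were chosen with earlier results of these data known. Named are called members with groups that do not overlap (all, or the 12 with the smallest adjusted p where a direction in a line had more), those called in both lines, the 8 highest means in each line and the 8 smallest adjusted p-values for the difference. Members outside this rule are named as examples of a class, chosen after their values were seen. The result of 1 member that is included in the counts is not reported here. Alternatives were other pseudocounts (0.1 and 1), filters, scalings, moderation, leaving out overlapping loci, a replicate block and leaving out each library.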

Additional observations from a re-analysis of the deposited data

How the results depend on the processing

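Of the counts of members, that of a difference between the lines stayed at 0 in all alternatives run (limma; 7 to 19 at an unadjusted p under 0.05), with 145 members tested except for 94 without overlapping loci and 86 at a mean of at least 1 FPKM. Without a filter on low values, so with 15469 loci to adjust over, 2 members were higher and 7 lower in HepG2, and 3 higher and 4 lower in LM3, in place of 6 and 22, and 9 and 24. Centring libraries on their median gave 10 higher in HepG2, quantile normalization 10 in HepG2 and 14 in LM3, and leaving out overlapping loci, with 94 members tested, 2 in HepG2; the cause of the first 2 was not tested. Leaving out each library in turn gave 0 to 3 higher and 0 to 6 lower in HepG2, and 0 higher and 0 lower in LM3, with 1 sample left in an arm that is assumed to vary like the others. The labels do not say whether the replicate numbers pair the samples. Same-numbered libraries deviated from their group means with a correlation of -0.0345 in HepG2 and 0.135 in LM3 across loci. With 2 numbers only, such values cannot exclude a pairing. The fit with the replicate block called 10 higher and 22 lower in HepG2 and 7 higher and 21 lower in LM3. It lost 2 calls in HepG2, ZDHHC12-DT and ARHGAP11B-DT, and 8 in LM3, among them SP2-DT and RNF139-DT. With all libraries and the filter kept, 23 of 28 calls in HepG2 and 23 of 33 in LM3 passed under every alternative that tested them. No direction of a called member reversed. Most members lie near 1 FPKM and the number of fragments is unknown, so low members are the least certain.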
